A study of Mus musculus with 34 samples.

Results

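The 8 genes described here encode parts of the MHC class II antigen presentation pathway: *H2-Aa*, *H2-Ab1*, *H2-Eb1*, *H2-DMa*, *H2-DMb1*, *Cd74*, *Ciita* and *Cd86*. They were taken by symbol from the 78298 genes of the deposited count table, and all 8 were among the 14980 genes that passed the filter on low counts. Whole liver of male mice aged 8 to 12 weeks was sequenced before and after partial hepatectomy (PHx), the removal of the median and left lateral lobes that makes the remaining liver regenerate. SIRTintKO mice lacked exon 4 of *Sirt1* in the cells that express Cre from the Villin promoter, the epithelium of the gut, and WT mice carried the floxed *Sirt1* allele without Cre. All mice were of C57/Bl6 background, and the floxed line itself came from a mixed B6;129 stock. There were 6 WT and 6 SIRTintKO livers from untreated mice (0 h), 6 WT and 5 SIRTintKO livers at 6 h after PHx, and 4 WT and 7 SIRTintKO livers at 24 h, each the liver of a separate mouse. The comparisons ask how the class II genes changed while the liver regenerated, and whether loss of intestinal SIRT1 altered that change.

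MHC class II molecules are pairs of an alpha and a beta chain that show peptides from taken-up proteins to CD4+ T cells. The chains are held together in the endoplasmic reticulum by the invariant chain CD74, which is then cut down to a fragment that H2-DM exchanges for peptide. The transactivator CIITA switches the whole set on, and CD86 on the same cell gives the T cell its second signal. In liver, class II is known to be carried mainly by dendritic cells, B cells, Kupffer cells and other macrophages, and at a lower level by sinusoidal endothelium. In whole liver, fewer cells of a type and less RNA per cell cannot be told apart.

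The libraries held between 14892122 and 23480492 counts assigned to genes, with a median of 16807340. The summed level of 9 hepatocyte markers lay between 34844 and 95656 CPM (counts per 1e6 of the TMM-scaled library) in every library. *Sirt1* itself did not check the genotype, because the deletion is in gut epithelium: its level in liver was 11.8, 11.3 and 13.6 CPM in WT and 11.6, 10.3 and 8.66 CPM in SIRTintKO at 0, 6 and 24 h, and edgeR's adjusted p for the genotype was 1, 0.934 and 0.0720. Of the WT livers at 6 h, replicate 6 differed most from the others: its chi-square per gene against the others of its group was 113 to 198, where the others differed from each other by 29.1 to 115, and its summed neutrophil markers were at 59.9 CPM against 5.86 to 19.005 CPM. Its library number lies among those of the 24 h livers, and whether its label is right was not tested. At 24 h, WT replicates 1 and 2 differed from replicates 3 and 4 by a chi-square of 173 to 254 per gene, with 111 and 21.7 within these pairs, and SIRTintKO replicate 2 differed from the others of its group by 90.7 to 223. The members' calls that change without 1 of these livers are given beside their values.

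Some libraries at 0 h stood apart in a class II gene that is no member, *H2-Ea*, the alpha chain that pairs with the product of *H2-Eb1*. C57BL/6 mice are known not to make this chain because of a deletion at its promoter. *H2-Ea* was nevertheless present in all 6 WT livers at 0 h, at 8.29, 7.97, 6.73, 6.94, 11.8 and 5.13 CPM. Of the 6 SIRTintKO livers at 0 h, replicates 1, 2 and 5 had 9.53, 4.93 and 11.3 CPM, replicate 3 had 1 count, and replicates 4 and 6 had none. All 22 livers after PHx had 0 counts, where 3 counts would be 0.0982 to 0.233 CPM. The labels also number the 0 h libraries in a series apart from those at 6 and 24 h. In both genotypes, time after PHx and library series therefore cannot be told apart in any comparison with 0 h, and in WT neither can the presence of *H2-Ea* reads. Whether the 0 h mice carried another class II haplotype was not tested. In SIRTintKO livers each comparison of the class II genes with 0 h was repeated without replicates 1, 2 and 5, and those values stand beside the results for the members, *H2-DMb2* and *H2-Ob*, although this does not part time from library series.

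Among the SIRTintKO livers at 0 h, the 3 with *H2-Ea* above 1 CPM and the 3 others overlapped in all 8 members. *H2-Aa* ranged from 14.6 to 29.7 CPM (median 18.5) in the former and from 13.6 to 39.0 CPM (median 19.6) in the latter. *Cd74* ranged from 47.8 to 88.5 CPM and from 40.0 to 129 CPM. The medians of *H2-DMa* were 2.78 and 3.45 CPM and those of *Cd86* 2.43 and 1.99 CPM. With 3 livers a side no difference was tested.

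**Figure D1:**
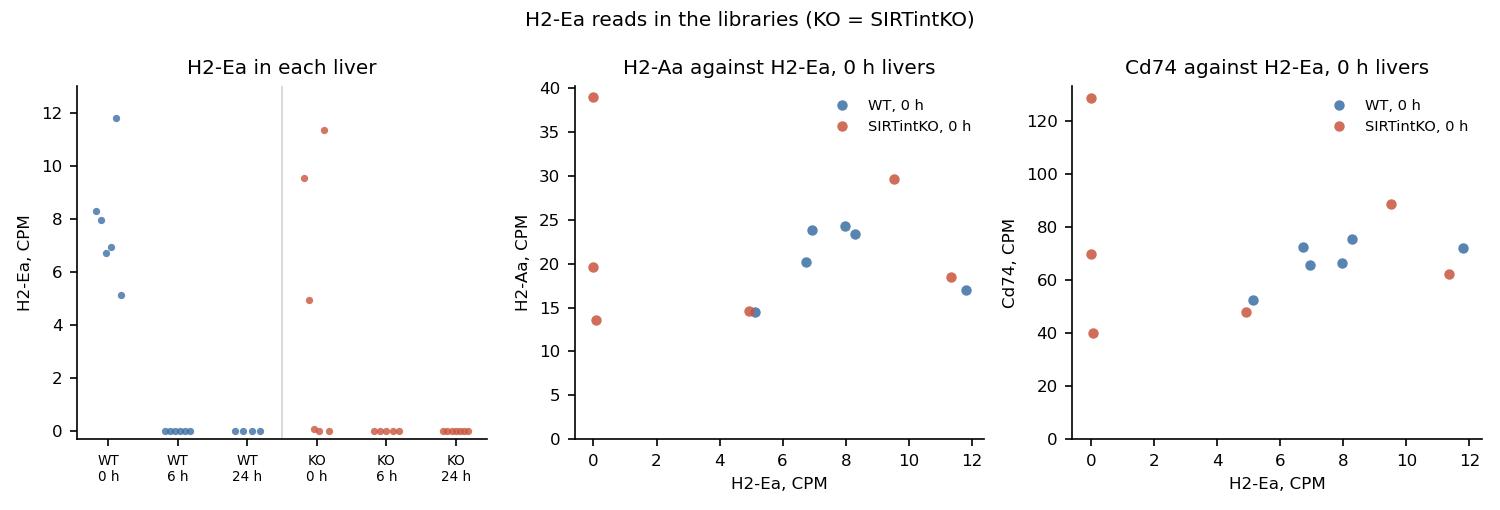
The left panel plots *H2-Ea* in CPM for each liver by group, and the other panels plot *H2-Aa* and *Cd74* in CPM against *H2-Ea* in the 0 h livers, with WT and SIRTintKO (KO) in different colours. *H2-Ea* lies between 5.13 and 11.8 CPM in the 6 WT livers at 0 h and in the same range, apart from one value of 4.93, in 3 SIRTintKO livers, and is at 0 in all 22 livers after PHx, while the 0 h livers with and without it overlap in *H2-Aa* and *Cd74*.

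Class II promoters are known for a shared pair of elements just upstream of the gene, an X box bound by the RFX complex and a Y box bound by NF-Y, on which CIITA assembles. RefSeq promoter windows (GRCm38.p6) were on hand for 4 of the 8 members: *H2-Aa*, *H2-Eb1*, *H2-DMa* and *H2-DMb1*. *H2-Ab1*, *Cd74*, *Ciita* and *Cd86* are named only. The 150 bases before the start are printed 5′ to 3′ on the strand of the gene for *H2-Aa* (chr17:34287824-34287973, minus strand), *H2-Eb1* (chr17:34305717-34305866, plus strand) and *H2-DMb1* (chr17:34153041-34153190, plus strand), because these show the pair in both classical chain genes and its partial form in a DM gene. Capitals mark GCAAC, letters of an X box core, and ATTGG, the letters of a Y box.
H2-Aa: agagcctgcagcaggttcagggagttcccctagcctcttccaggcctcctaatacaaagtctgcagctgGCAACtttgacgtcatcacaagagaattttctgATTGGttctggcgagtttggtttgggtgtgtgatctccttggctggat
H2-Eb1: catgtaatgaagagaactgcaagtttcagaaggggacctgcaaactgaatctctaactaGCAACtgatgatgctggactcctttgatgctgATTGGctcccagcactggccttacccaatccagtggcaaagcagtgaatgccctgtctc
H2-DMb1: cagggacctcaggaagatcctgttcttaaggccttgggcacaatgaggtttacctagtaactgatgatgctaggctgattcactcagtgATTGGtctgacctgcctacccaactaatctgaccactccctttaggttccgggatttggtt

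*H2-Aa* has GCAAC 81 bases and ATTGG 48 bases before the start, with 28 bases between them, and *H2-Eb1* has them 91 and 59 bases before it, with 27 between. Windows of 300 bases (250 before and 50 after the start) were searched for GCAAC followed within 20 to 32 bases by ATTGG. The class II genes were searched on the strand of the gene, where the pair was found in 109 of 32851 promoters, or 0.332%. On either strand the pair was in 226 of these promoters, or 0.688%. ATTGG or its reverse complement CCAAT alone, which overlaps the pair, was in 37.4% of them. Of 4 other class II genes with a window, *H2-Eb2*, *H2-Oa* and *H2-Ob* had the pair and *H2-DMb2* did not. *H2-DMb1* had ATTGG 61 bases before the start and no GCAAC at that spacing, and neither window of *H2-DMa* had the pair. A match is a description of letters and not a bound site. Its absence says only that the pair is not in the window on the strand of the gene.

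After PHx, *Cd74* was called lower than in untreated liver at both times in both genotypes, and the 3 class II chains at 24 h in both, while the calls for the other members differed by time and genotype. At 6 h, the mean level of *Cd74*, the most heavily counted member, was 51.8% lower in WT and 58.9% lower in SIRTintKO, and at 24 h 65.2% and 67.5% lower. A gene was called when its edgeR adjusted p was under 0.05 and its log2 fold change was over 1 in size. At 6 h in WT, 1 of 8 members was called lower, *Cd74*, against 8.33% of all genes tested. At 6 h in SIRTintKO, 8 of 8 were called lower, against 8.67% of all genes. At 24 h, 4 of 8 were called lower in WT (7.37% of all genes) and 4 of 8 in SIRTintKO (11% of all genes), and in both genotypes these were *Cd74*, *H2-Aa*, *H2-Ab1* and *H2-Eb1*.

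The fold threshold parted genes of near-equal change. By adjusted p under 0.05 alone, 4 of 8 members were lower at 6 h in WT (18.4% of all genes) and 8 of 8 in SIRTintKO (17.5%), and at 24 h 6 of 8 in WT (14.5%) and 5 of 8 in SIRTintKO (23.9%). The median log2 fold change over the 8 members was -0.78 in WT and -1.29 in SIRTintKO at 6 h, and -1.12 and -0.86 at 24 h. Over all genes tested, these medians were 0.02, 0.01, 0.02 and 0.04. The 6 h and 24 h comparisons of a genotype share their 0 h livers, so they are not independent of each other. Several of these genes were picked out by the study from the same livers, and their direction is not independent evidence.

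Single livers carried part of the count of calls. At 6 h in SIRTintKO, the count of 8 became 4 without SIRTintKO 0 h replicate 6. That liver was the highest at 0 h in all 8 members. The count of 8 also fell without SIRTintKO 0 h replicate 1 or 5 and without SIRTintKO 6 h replicate 2, 3, 4 or 5. In these fits *Ciita*, *H2-Eb1* or *H2-Aa* lost the call. The count was 7 without the 3 livers with *H2-Ea*, while the count of 4 at 24 h in SIRTintKO was 4 without them. At 6 h in WT, the count of 1 became 0 without WT 6 h replicate 1 or 6, 2 without WT 0 h replicate 6 or WT 6 h replicate 2 or 4, and 3 without WT 6 h replicate 3. By adjusted p alone, the 4 members of that comparison became 2 without WT 0 h replicate 1 or WT 6 h replicate 1 or 5. At 24 h in WT, the count of 4 became 7 without WT 24 h replicate 3, where *Cd86*, *H2-DMa* and *H2-DMb1* were added. Tested against the fold threshold itself (edgeR's glmTreat), 0 of 8 members passed at 6 h in WT (4.97% of all genes) and SIRTintKO (4.59%) and at 24 h in WT (4.45%), and 1 passed at 24 h in SIRTintKO (9.75%).

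**Figure D2:**
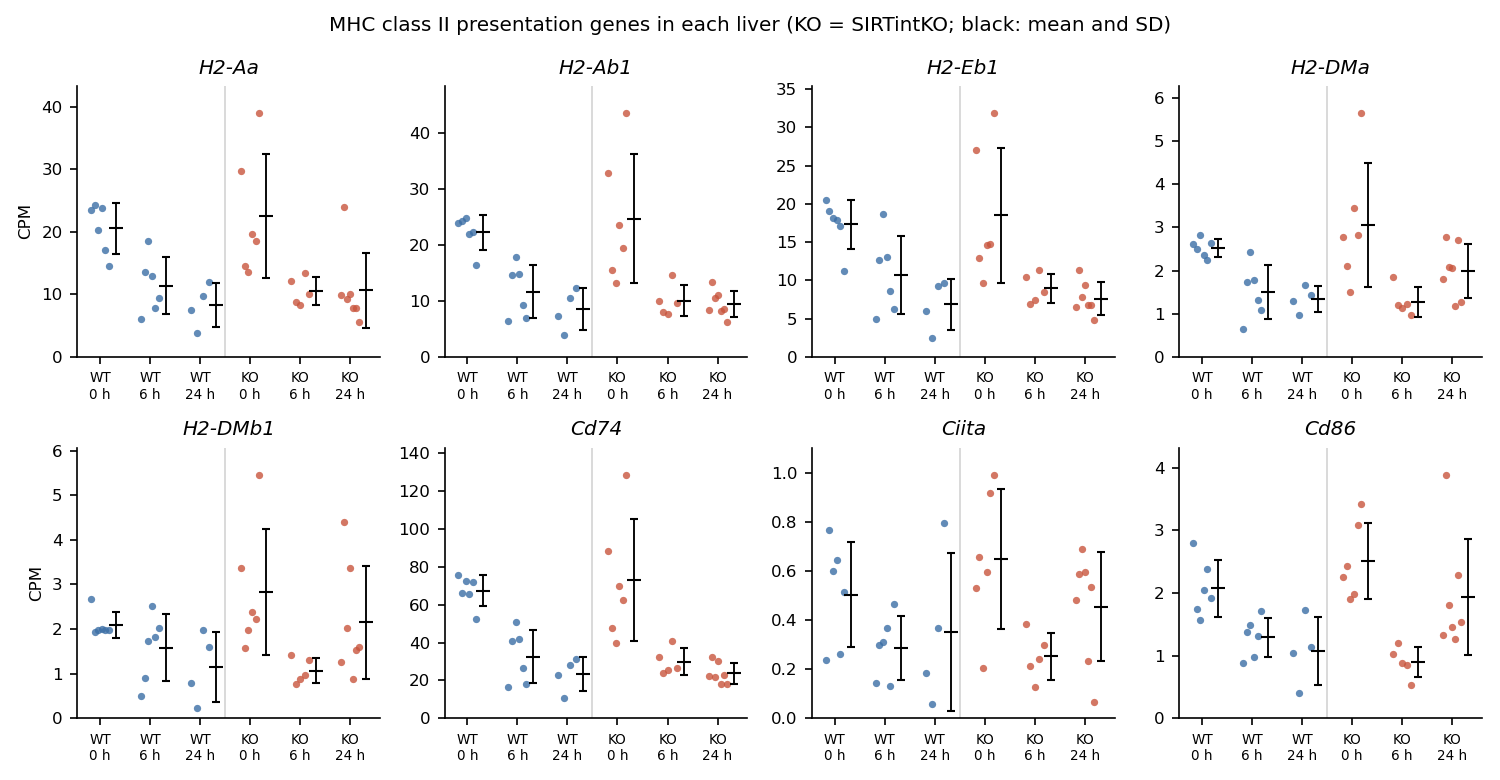
Each of 8 panels plots 1 member in CPM on a linear axis, with 1 point per liver in the 6 groups of genotype (WT and SIRTintKO, KO) and time after PHx, and the mean ± SD in black. In each panel the 2 groups at 0 h are highest by mean, except for *H2-DMb1*, where the SIRTintKO livers at 24 h, with a mean of 2.15 CPM, come between them.

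In 7 of 8 members both 0 h groups had the highest means, and SIRTintKO livers at 0 h had the highest mean in all 8. The order of the groups after PHx differed between members: SIRTintKO livers at 6 h were lowest for *H2-DMa*, *H2-DMb1*, *Ciita* and *Cd86*, and WT livers at 24 h for the 3 chains and *Cd74*. Of the 40 pairs of neighbours in these orders, 39 overlapped in their single livers. The exception was *Cd74*, where the WT livers at 0 h all lay above the WT livers at 6 h.

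*H2-Aa* (ENSMUSG00000036594) encodes the alpha chain of I-A, the class II molecule of C57BL/6 mice. In WT livers its level had a lowest, median and highest value of 14.5, 21.8 and 24.3 CPM at 0 h and 6.05, 11.2 and 18.5 CPM at 6 h, and it was 7.44, 3.77, 9.74 and 12 CPM at 24 h. In SIRTintKO livers the lowest, median and highest were 13.6, 19.05 and 39.0 CPM at 0 h and 5.63, 9.31 and 23.9 CPM at 24 h, and the 5 livers at 6 h had 12.1, 8.80, 8.36, 13.5 and 10.003 CPM. All 4 WT livers at 24 h and all 5 SIRTintKO livers at 6 h lay below every 0 h liver of their genotype, whereas 1 SIRTintKO liver at 24 h, replicate 2, was above the 0 h median. The log2 fold change against 0 h was -0.85 (SE 0.31, edgeR adjusted p = 0.0288) at 6 h and -1.32 (SE 0.36, adjusted p = 0.00517) at 24 h in WT. In SIRTintKO it was -1.09 (SE 0.33, adjusted p = 0.00865) at 6 h and -1.10 (SE 0.29, adjusted p = 0.00264) at 24 h, and -1.21 and -1.19 without the livers with *H2-Ea*. Without SIRTintKO 0 h replicate 6 both SIRTintKO changes were -0.87, short of the fold threshold, and without SIRTintKO 0 h replicate 1 they were -0.998 and -0.9995, just inside it. The 24 h change was also just inside it, at -0.99, without SIRTintKO 24 h replicate 6 or 7.

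*H2-Ab1* (ENSMUSG00000073421) encodes the beta chain of I-A and moved with its partner. Its mean was 22.3 ± 3.13 CPM (SD, n = 6) at 0 h, 11.7 ± 4.76 CPM (n = 6) at 6 h and 8.56 ± 3.73 CPM (n = 4) at 24 h in WT. In SIRTintKO it was 24.7 ± 11.6 CPM (n = 6), 10.01 ± 2.75 CPM (n = 5) and 9.49 ± 2.33 CPM (n = 7). In WT, the 4 livers at 24 h, at 7.32, 3.94, 10.6 and 12.4 CPM, all lay under the lowest 0 h liver at 16.4 CPM. The 5 SIRTintKO livers at 6 h, at 10.005, 8.10, 7.74, 14.6 and 9.58 CPM, overlapped with the lowest 0 h liver at 13.2 CPM. The log2 fold change was -0.93 (SE 0.28, edgeR adjusted p = 0.00856) at 6 h and -1.38 (SE 0.32, adjusted p = 0.00154) at 24 h in WT, and -1.30 (SE 0.30, adjusted p = 0.000871) and -1.39 (SE 0.27, adjusted p = 8.36e-05) in SIRTintKO. Without the livers with *H2-Ea* the SIRTintKO changes were -1.44 and -1.50.

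The ratio of *H2-Aa* to *H2-Ab1* counts stayed between 0.763 and 1.34 in 33 of 34 livers. SIRTintKO 24 h replicate 2 was outside that range, with 326 counts of *H2-Aa* against 182 of *H2-Ab1*, a ratio of 1.79.

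*H2-Eb1* (ENSMUSG00000060586) encodes the beta chain of I-E, which needs the product of *H2-Ea* to reach the cell surface. WT livers had a mean of 17.3 ± 3.21 CPM (SD, n = 6) at 0 h, 10.7 ± 5.10 CPM (n = 6) at 6 h and 6.85 ± 3.35 CPM (n = 4) at 24 h, and SIRTintKO livers had 18.5 ± 8.81 CPM (n = 6), 8.94 ± 1.93 CPM (n = 5) and 7.61 ± 2.14 CPM (n = 7). The 4 WT livers at 24 h, at 6.03, 2.46, 9.27 and 9.66 CPM, were below the lowest 0 h liver at 11.2 CPM. The 5 SIRTintKO livers at 6 h, at 10.5, 6.90, 7.48, 11.4 and 8.45 CPM, reached above the lowest 0 h liver at 9.69 CPM. At 6 h the WT change of -0.70 did not pass the test (edgeR adjusted p = 0.0692) and the SIRTintKO change was -1.05 (SE 0.32, adjusted p = 0.0110). At 24 h it was -1.33 (SE 0.35, adjusted p = 0.00448) in WT and -1.29 (SE 0.29, adjusted p = 0.000579) in SIRTintKO. Without the livers with *H2-Ea* the SIRTintKO changes were -1.08 and -1.31. Without SIRTintKO 0 h replicate 6 or 1 the 6 h change was -0.82 or -0.91, and without SIRTintKO 6 h replicate 2 or 3 it was -0.997 or -0.99, inside the fold threshold.

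*Cd74* (ENSMUSG00000024610), the invariant chain, was the 1 member whose WT livers lay apart from 0 h at both times. Its lowest, median and highest level in WT was 52.3, 69.2 and 75.4 CPM at 0 h and 16.8, 33.5 and 50.9 CPM at 6 h, and the 4 livers at 24 h had 23.1, 10.97, 28.4 and 31.2 CPM. In SIRTintKO the lowest, median and highest was 40.0, 66.2 and 129 CPM at 0 h and 17.97, 22.5 and 32.3 CPM at 24 h, and the 5 livers at 6 h had 32.6, 24.0, 25.7, 41.0 and 26.4 CPM. No liver at 6 or 24 h in WT, and none at 24 h in SIRTintKO, reached the lowest 0 h liver of its genotype, and at 6 h in SIRTintKO 1 liver passed it by under 1 CPM. The log2 fold change was -1.05 (SE 0.27, edgeR adjusted p = 0.00249) at 6 h and -1.52 (SE 0.31, adjusted p = 0.000456) at 24 h in WT. In SIRTintKO it was -1.28 (SE 0.29, adjusted p = 0.000718) and -1.62 (SE 0.26, adjusted p = 7.70e-06), and -1.43 and -1.75 without the livers with *H2-Ea*. The WT change at 6 h came to -0.93 without WT 6 h replicate 1 and to -0.92 without replicate 6, inside the fold threshold.

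The groups were also compared by whether their single livers overlapped. Lower without overlap were 1 of 8 at 6 h in WT, *Cd74*, against 12.6% of all genes, and 3 of 8 at 6 h in SIRTintKO, *H2-Aa*, *H2-DMb1* and *Cd86*, against 13%. At 24 h they were 5 of 8 in WT, the 3 chains, *H2-DMa* and *Cd74*, against 9.89%, and 1 of 8 in SIRTintKO, *Cd74*, against 10.9%.

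**Figure D3:**
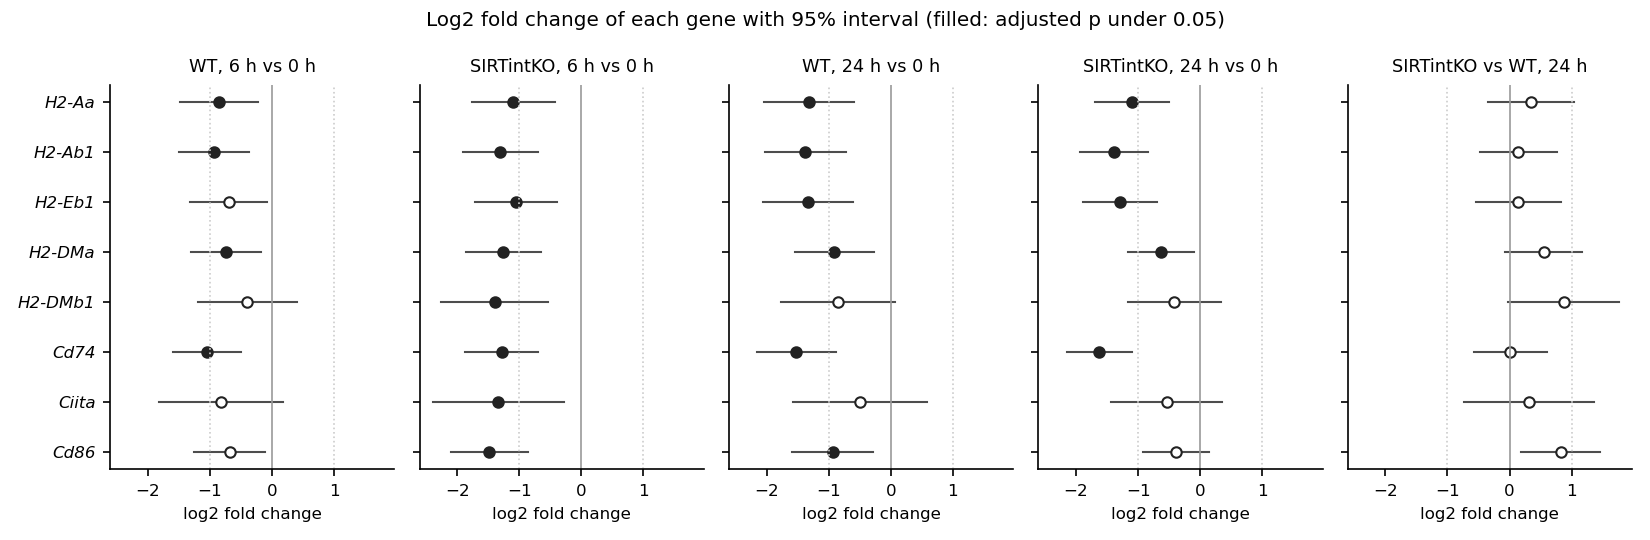
The plot gives each member's log2 fold change with its 95% interval from the edgeR fit in 5 comparisons, 6 h and 24 h against 0 h in WT and in SIRTintKO (KO) and SIRTintKO against WT at 24 h, where filled points have an adjusted p under 0.05 and dotted lines stand at -1 and 1. *Cd74* is lower in all 4 comparisons with 0 h, from -1.05 to -1.62, and no point is filled for the genotypes at 24 h, where *Cd86* is at 0.83.

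*H2-DMa* and *H2-DMb1* encode the chains of H2-DM, the peptide exchanger of the endosome. *H2-DMa* (ENSMUSG00000037649) was measured at 9 to 91 counts a liver, with means of 2.53 ± 0.207 CPM (SD, n = 6) at 0 h, 1.499 ± 0.619 CPM (n = 6) at 6 h and 1.35 ± 0.295 CPM (n = 4) at 24 h in WT. In SIRTintKO they were 3.05 ± 1.44 CPM (n = 6), 1.27 ± 0.344 CPM (n = 5) and 1.98 ± 0.629 CPM (n = 7). The 4 WT livers at 24 h, at 1.29, 0.971, 1.68 and 1.44 CPM, were all under the lowest 0 h liver at 2.24 CPM, while the SIRTintKO groups overlapped with 0 h at both times. *H2-DMa* changed by -0.74 (SE 0.28, edgeR adjusted p = 0.0336) at 6 h and -0.91 (SE 0.31, adjusted p = 0.0258) at 24 h on the log2 scale in WT, and by -1.26 (SE 0.30, adjusted p = 0.00122) and -0.63 (SE 0.26, adjusted p = 0.0442) in SIRTintKO. Without the livers with *H2-Ea* the SIRTintKO changes were -1.49 and -0.84 (adjusted p = 0.0418 at 24 h), and without SIRTintKO 0 h replicate 6 they were -0.99, inside the fold threshold, and -0.36 (adjusted p = 0.244). The 24 h change also missed an adjusted p of 0.05 without SIRTintKO 0 h replicate 1 or 4 or SIRTintKO 24 h replicate 1, 3, 4, 5 or 7, and the WT change at 24 h without WT 24 h replicate 1 or 2 (adjusted p = 0.0678 and 0.107). Without WT 24 h replicate 3 the WT change was called (-1.02, adjusted p = 0.0231).

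*H2-DMb1* (ENSMUSG00000079547) is the beta chain gene. Its lowest, median and highest level in WT was 1.94, 1.98 and 2.68 CPM at 0 h and 0.510, 1.79 and 2.52 CPM at 6 h, and the 4 livers at 24 h had 0.799, 0.229, 1.99 and 1.59 CPM. Neither WT change passed the test, with -0.40 at 6 h (edgeR adjusted p = 0.455) and -0.85 at 24 h (adjusted p = 0.145). Without single WT livers at 24 h the latter ran from -0.51 (replicate 2) to -1.23 (replicate 3), where it was called with an adjusted p of 0.0499. The WT change at 6 h ran from -0.60 to -0.24 with any 1 liver left out. In SIRTintKO the 5 livers at 6 h, at 1.41, 0.775, 0.880, 0.971 and 1.32 CPM, all lay below the lowest 0 h liver at 1.58 CPM. That fall was -1.40 on the log2 scale (SE 0.43, adjusted p = 0.00984), and -1.62 without the livers with *H2-Ea*. At 24 h the SIRTintKO livers, from 0.892 to 4.40 CPM, spread over the 0 h range and the change of -0.41 did not pass (adjusted p = 0.358), nor did that of -0.62 without the livers with *H2-Ea* (adjusted p = 0.292). This 24 h change ran from -0.68 to -0.12 with any 1 liver left out.

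*H2-DMb2* lies next to *H2-DMb1* as a near-identical copy, so that the counting could split reads between them. Its mean was 0.763 CPM at 0 h and 0.131 CPM at 6 h in WT, from 0 to 20 counts a liver in these groups. It was called lower at 6 h (-2.47, edgeR adjusted p = 0.000439) and 24 h (-1.48, adjusted p = 0.0331) in WT and at 24 h in SIRTintKO (-1.87, adjusted p = 0.00150), but not at 6 h in SIRTintKO (-0.99, adjusted p = 0.118). Without the livers with *H2-Ea* the SIRTintKO call at 24 h was lost (-1.32, adjusted p = 0.0592), and the 6 h change was -0.46 (adjusted p = 0.595). With the counts of both copies summed, the change at 6 h was -0.73 (adjusted p = 0.112) in WT and -1.32 (adjusted p = 0.00773) in SIRTintKO. Of the remaining class II genes, *H2-Ob*, a chain of the DM inhibitor H2-DO, was called lower in SIRTintKO at 24 h alone (-1.37, adjusted p = 0.00773, and -1.42 with 0.0347 without the livers with *H2-Ea*), and *H2-Oa* and *H2-Eb2* had at most 8 counts in any liver and were not tested.

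*Ciita* (ENSMUSG00000022504), the transactivator of the set, was close to the limit of detection at this depth, with 1 to 16 counts a liver. In WT its mean was 0.505 ± 0.213 CPM (SD, n = 6) at 0 h, 0.287 ± 0.130 CPM (n = 6) at 6 h and 0.351 ± 0.323 CPM (n = 4) at 24 h. In SIRTintKO it was 0.650 ± 0.284 CPM (n = 6), 0.253 ± 0.0969 CPM (n = 5) and 0.456 ± 0.224 CPM (n = 7), and the groups overlapped at each time. Its 1 call was at 6 h in SIRTintKO (-1.34, SE 0.52, edgeR adjusted p = 0.0405). That call was lost without the livers with *H2-Ea* (-1.24, adjusted p = 0.154), without SIRTintKO 0 h replicate 5 or 6, and without SIRTintKO 6 h replicate 2, 3, 4 or 5. With any 1 liver left out the change stayed between -1.17 and -1.57, and the adjusted p of the fits that lost the call ran from 0.0510 to 0.101. The other changes against 0 h were -0.81 and -0.50 in WT and -0.54 at 24 h in SIRTintKO, with adjusted p = 0.197, 0.487 and 0.310. Without the livers with *H2-Ea* the last was -0.43 (adjusted p = 0.581). The WT change at 24 h was -1.28 without WT 24 h replicate 4 and -0.16 without WT 24 h replicate 2, and it passed in neither case.

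*Cd86* (ENSMUSG00000022901), the co-stimulatory ligand of CD28, was called lower at 6 h in SIRTintKO and higher at 24 h than at 6 h. Its lowest, median and highest level in SIRTintKO was 1.91, 2.34 and 3.42 CPM at 0 h and 1.27, 1.54 and 3.89 CPM at 24 h, and the 5 livers at 6 h had 1.03, 1.20, 0.880, 0.850 and 0.539 CPM. The 6 h livers lay below every liver of both other times. In WT the lowest, median and highest was 1.56, 1.98 and 2.80 CPM at 0 h and 0.875, 1.34 and 1.71 CPM at 6 h, and the 4 livers at 24 h had 1.05, 0.400, 1.73 and 1.14 CPM. The change from 0 to 6 h was -1.48 (SE 0.31, edgeR adjusted p = 0.000323) in SIRTintKO, or -1.46 without the livers with *H2-Ea*, and -0.68 (adjusted p = 0.0557) in WT. At 24 h it was -0.93 (SE 0.32, adjusted p = 0.0243) in WT and -0.38 (adjusted p = 0.225) in SIRTintKO, or -0.34 (adjusted p = 0.446) without the livers with *H2-Ea*. The SIRTintKO change at 24 h ran from -0.63 to -0.28 with any 1 liver left out. The WT change was called without WT 0 h replicate 3 (-1.001) or WT 24 h replicate 3 (-1.25). The WT change missed an adjusted p of 0.05 without WT 0 h replicate 1, WT 24 h replicate 1 or WT 24 h replicate 2 (adjusted p = 0.0547, 0.0617 and 0.137).

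From 6 to 24 h, *Cd86* was the 1 member of 8 called higher in SIRTintKO, by 1.10 on the log2 scale (SE 0.30, edgeR adjusted p = 0.00659), against 6.67% of all genes called higher. It was also the 1 member whose 24 h livers all lay above the 6 h livers, against 3.79% of all genes. Without SIRTintKO 24 h replicate 2 the change was 0.87 and without SIRTintKO 6 h replicate 5 it was 0.97, both inside the fold threshold. In this comparison 6 of 12 macrophage and monocyte markers (median change 1.57) and all 7 neutrophil markers tested (3.12) were called higher. Of 8 Kupffer cell markers *Marco* was called higher, and no marker of these lists was called lower. The markers' part in the change of *Cd86* was not tested. *H2-DMb1* and *H2-DMa* changed by 0.98 and 0.63 between these times and missed the test (adjusted p = 0.0728 and 0.0974), and without SIRTintKO 24 h replicate 5 *H2-DMb1* passed (1.11, adjusted p = 0.0370). The 3 chains and *Cd74* differed little between 6 and 24 h in SIRTintKO, from -0.34 to -0.0020. In WT, edgeR called 0 of 8 members between 6 and 24 h, against 7.1% of all genes, with none at an unadjusted p under 0.05 (30.1% of all genes) and 0 called by DESeq2. The WT changes ran from -0.64 for *H2-Eb1* to 0.32 for *Ciita*.

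Between the genotypes no member differed by the test at any time. At 0 h edgeR called 0 of 8 members and 0% of all genes, with 0 members at an unadjusted p under 0.05 (1.06% of all genes). At 6 h it likewise called 0 of 8 and 0% of all genes, with 0 members at an unadjusted p under 0.05 (6.48% of all genes). At 24 h it called 0 of 8, against 2.65% of all genes, with 1 member, *Cd86*, at an unadjusted p under 0.05 (23.4% of all genes), and DESeq2 called 0 of 8 at each time. The median log2 difference of SIRTintKO from WT over the 8 members was 0.21 at 0 h, -0.23 at 6 h and 0.33 at 24 h.

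*Cd86* came closest, at 24 h. The 7 SIRTintKO livers, from 1.27 to 3.89 CPM, overlapped with the 4 WT livers, from 0.400 to 1.73 CPM, and the log2 difference was 0.83 (95% interval 0.19 to 1.46, edgeR unadjusted p = 0.0125, adjusted p = 0.104). Without WT 24 h replicate 3, the highest of the WT livers, it was 1.13 with adjusted p = 0.0435. For *H2-DMb1* the difference at 24 h was 0.87 (95% interval -0.02 to 1.76, adjusted p = 0.226), and it ran from 0.53 to 1.24 with any 1 liver left out. For *Cd74* the difference at 24 h was 0.01 (95% interval -0.58 to 0.60).

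The change from 0 to 6 h was larger in SIRTintKO for all 8 members by its fitted value, yet the difference in that change was not detectable. The interaction of genotype and time at 6 h ran from -0.23 for *Cd74* to -1.001 for *H2-DMb1* on the log2 scale, and its 95% interval included 0 for every member, from -2.17 to 0.17 for *H2-DMb1* and from -1.64 to 0.04 for *Cd86*. By edgeR 0 of 8 members passed, against 0% of all genes, with 0 members at an unadjusted p under 0.05 (smallest 0.0611, *Cd86*), against 2.99% of all genes, and 0 called by DESeq2. At 24 h the interaction ran from -0.10 to 0.55, and 0 of 8 members passed, against 0.00668% of all genes, with 0 members at an unadjusted p under 0.05 (12.7% of all genes) and 0 called by DESeq2. Both interactions were also without a call when the livers with *H2-Ea* were left out. The 8 calls at 6 h in SIRTintKO beside 1 in WT are thus not shown to differ between the genotypes.

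Within the groups, the class II genes went up and down together from liver to liver. SIRTintKO 0 h replicate 6 was the highest of its group in all 8 members and SIRTintKO 0 h replicate 3 the lowest in 7, with 39.0 and 13.6 CPM of *H2-Aa*. WT 24 h replicate 2 was the lowest of its group in all 8 and WT 6 h replicate 1 in 7. SIRTintKO 24 h replicate 2 was the highest of its group in all members except *Ciita*.

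These deviations were compared as log2 CPM less the group mean, over 34 livers, with 12 relations of *H2-Aa* computed and p from 100000 permutations within groups. *H2-Aa* went with *H2-Ab1* (Pearson's r 0.91, Spearman's rho 0.93), *H2-Eb1* (r 0.92, rho 0.93) and *Cd74* (r 0.88, rho 0.91), each with permutation p = 1e-05, the smallest that can be given, and adjusted p = 4e-05 for r. The values were lower for *H2-DMa* (r 0.75, rho 0.72, permutation adjusted p = 9e-05) and *H2-DMb1* (r 0.73, rho 0.66, permutation adjusted p = 0.000384). It was 0.63 with *Ciita* (rho 0.57, permutation adjusted p = 0.00268), whose counts are few, and 0.58 with *Cd86* (rho 0.41, permutation adjusted p = 0.00654). Without the 2 livers farthest from the median of *H2-Aa*, SIRTintKO 24 h replicate 2 and WT 24 h replicate 2, r was 0.93, 0.94 and 0.89 for *H2-Ab1*, *H2-Eb1* and *Cd74*, 0.75 and 0.63 for the DM genes, 0.60 for *Ciita*, and 0.36 for *Cd86*, which therefore rests in part on those livers. The points share library depth and the scaling of each library.

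**Figure D4:**
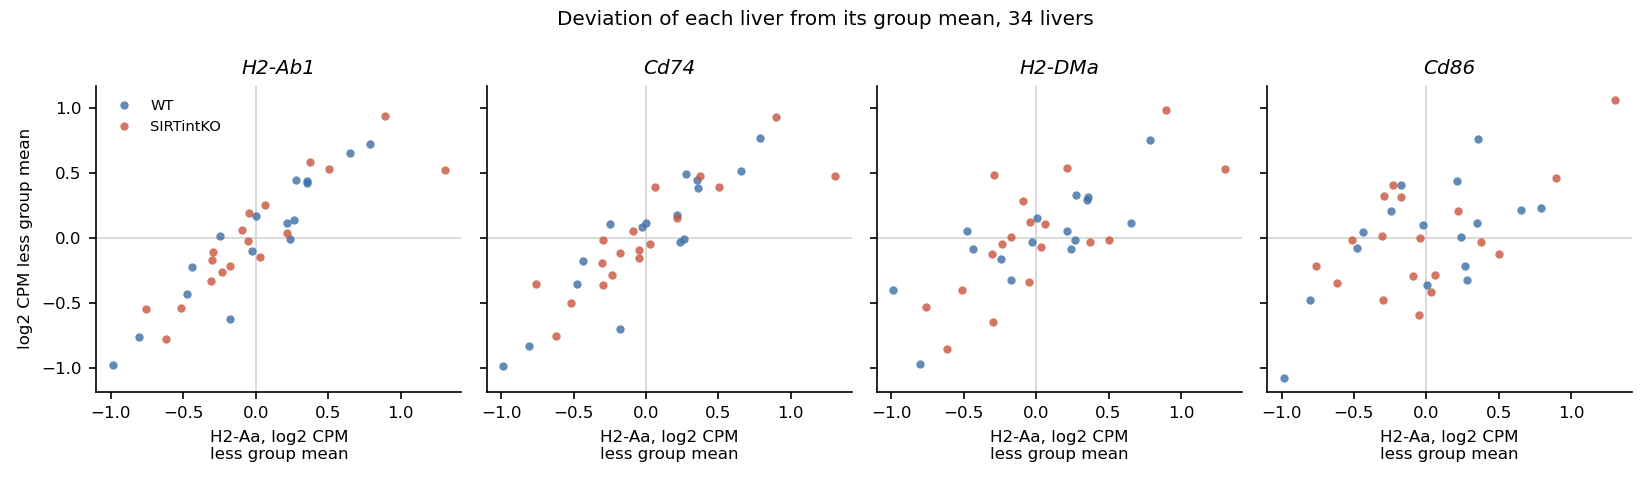
Each panel plots the log2 CPM of 1 gene (*H2-Ab1*, *Cd74*, *H2-DMa* or *Cd86*) less its group mean against that of *H2-Aa*. There is 1 point per liver for 34 livers. The points for *H2-Ab1* (r 0.91) and *Cd74* (r 0.88) lie close to a line, and those for *Cd86* (r 0.58) scatter, with SIRTintKO 24 h replicate 2 at the upper right.

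Among 12379 other genes with a mean of at least 1 CPM, those whose deviations were most like the mean of the chains, *Cd74* and the DM genes were *Il2rg* (r 0.76), *Tgfb1* (r 0.72), *Serpina3g* (r 0.71), *Siglece* (r 0.68) and *Rgl1* (r 0.65), given as a description over 34 livers. Their course after PHx differed from gene to gene. *Il2rg*, the shared gamma chain of cytokine receptors, had 1.88 ± 0.735 CPM (SD, n = 6) at 0 h, 1.03 ± 0.146 CPM (n = 5) at 6 h and 2.38 ± 1.04 CPM (n = 7) at 24 h in SIRTintKO. In WT its means were 2.12 CPM (n = 6), 1.29 CPM (n = 6) and 1.14 CPM (n = 4). At 24 h it was called higher in SIRTintKO than in WT (1.05, edgeR adjusted p = 0.0493). *Rgl1* was lower at 6 h in SIRTintKO (-0.94, edgeR adjusted p = 0.000744). *Serpina3g* was higher at 24 h than at 0 h in SIRTintKO by 1.21 on the log2 scale (edgeR adjusted p = 0.00196), where *H2-Aa* changed by -1.10.

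The steps around the class II genes were read from lists of the pathway's other genes. Of 7 genes for endosomal proteases and the thiol reductase, which cut antigen and invariant chain, *Lgmn* (asparagine endopeptidase) was called higher in all 4 comparisons with 0 h, by 1.12 and 1.84 at 6 and 24 h in WT and by 1.12 and 1.63 in SIRTintKO. *Ctsl* (cathepsin L) was called higher at 6 h in both genotypes and at 24 h in WT, by 1.14, 1.06 and 1.07. *Ctss*, the protease that removes the invariant chain in antigen-presenting cells, did not pass in any comparison with 0 h, from -0.69 to 0.23.

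Of 8 genes for co-stimulation and class II turnover, 7 were tested. *Cd83*, a marker of mature dendritic cells that protects surface class II, was called lower at 6 h in WT (-2.30, edgeR adjusted p = 0.000981) and SIRTintKO (-2.49, adjusted p = 0.00210) and at 24 h in WT (-1.69, adjusted p = 0.0252). *Cd274*, which encodes PD-L1, was called lower at 6 h in WT (-1.77, adjusted p = 0.00151) and SIRTintKO (-1.12, adjusted p = 0.0400). At 24 h in SIRTintKO *Icosl*, *Cd40* and *Marchf1*, the ligase that removes class II and CD86 from the surface, were called higher than at 0 h, by 1.47, 1.39 and 1.01. From 6 to 24 h in SIRTintKO *Icosl*, *Cd83*, *Cd274* and *Cd40* were called higher, in the same interval as *Cd86*, and in WT *Cd274* alone. Called higher in that interval in SIRTintKO were also 6 of 12 macrophage and monocyte markers and all 7 neutrophil markers tested (6.67% of all genes). Their part in these changes was not tested. *Marchf1* was the 1 gene of the co-stimulation and turnover list called between the genotypes, higher in SIRTintKO at 24 h by 1.62 (adjusted p = 0.0460). The macrophage and monocyte markers *Ccr2*, *Lyz2* and *Ms4a6c*, the Kupffer cell marker *Marco* and the neutrophil marker *Csf3r* were also called higher there. No marker of these lists was called lower, and their part in the differences of *Marchf1* and *Cd86* was not tested.

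Of the 7 genes for the proteins that hold CIITA at the promoter (the RFX subunits, the NF-Y subunits and CREB1), *Rfxank* was the 1 called against 0 h. It was higher at 24 h in WT (1.16, edgeR adjusted p = 0.00125), with a mean of 69.1 ± 51.1 CPM (SD, n = 4) and a range of 34.9 to 145 CPM that overlapped the livers at 0 h, and lower in SIRTintKO than in WT at that time (-1.29, adjusted p = 0.00648). At 6 h in SIRTintKO, *Nfya* (0.55, adjusted p = 0.00264) and *Rfxap* (0.34, adjusted p = 0.0370) were higher within the fold threshold.

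Of 9 genes from interferon-gamma, the main inducer of CIITA, to *Ciita*, 8 were tested. *Irf1* was called lower in WT at 6 h (-1.55, edgeR adjusted p = 0.000241) and 24 h (-1.10, adjusted p = 0.0154) and did not pass in SIRTintKO (-0.66 and 0.26, adjusted p = 0.109 and 0.466). No gene of this list was called between the genotypes at any time, nor for the interaction at 6 or 24 h. At 24 h the receptor gene *Ifngr1* and the inhibitor *Socs1* were called higher in WT (1.10 and 3.65) and SIRTintKO (1.30 and 2.24), and *Ifngr2* in SIRTintKO (1.08). From 6 to 24 h in WT, *Jak2* and *Socs1* were called higher.

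MHC class I presentation was compared as the neighbouring pathway. Of its 13 genes, 2 were called against 0 h. *Psmb9*, an immunoproteasome subunit encoded in the class II region, was called lower in all 4 comparisons with 0 h, with -1.39 and -1.16 at 6 and 24 h in WT and -1.67 and -1.05 in SIRTintKO. *B2m*, the class I light chain, was called lower at 24 h in WT (-1.29, edgeR adjusted p = 0.00128). On the T cell side 4 of 7 genes were tested. The summed level of all 7 was low, with group medians from 1.91 CPM (SIRTintKO, 24 h) to 9.73 CPM (WT, 6 h). Large fold changes among them rest on few counts. *Cd4*, which binds class II, was called lower in all 4 comparisons with 0 h, with -2.88 and -3.63 at 6 and 24 h in WT and -4.20 and -5.14 in SIRTintKO. *Lag3*, which also binds class II, was called lower with -1.71, -1.80, -1.79 and -2.69 in the same order. *Cd28*, the receptor of CD86, was called higher by 5.57, 4.27, 5.17 and 2.88, and in SIRTintKO it was called lower from 6 to 24 h (-2.29, adjusted p = 0.00350). *Cd3g* was called lower at 24 h in SIRTintKO (-1.90, adjusted p = 0.0158).

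Markers of the cells that carry class II moved with the members in part. B cell markers were sparse, with 4 of 10 tested, and their summed level had a median of 7.67 CPM (range 5.00 to 13.1) at 0 h, 2.78 CPM (2.33 to 7.10) at 6 h and 3.13 CPM (2.29 to 4.40) at 24 h in WT. In SIRTintKO it was 6.73 CPM (3.55 to 13.2), 3.96 CPM (3.35 to 6.31) and 2.29 CPM (1.76 to 3.36). *Cd79a*, a chain of the B cell receptor, was called lower in all 4 comparisons with 0 h, and *Ighm* in all except 6 h in SIRTintKO. Of the dendritic cell markers 6 of 10 were tested, and *Xcr1* was not analysed here. Their summed level had medians of 9.43, 9.45 and 8.28 CPM in WT and 9.47, 8.98 and 7.29 CPM in SIRTintKO. Its whole range was 6.32 to 14.5 CPM. Of these markers *Itgae* was called lower at 6 h in both genotypes and at 24 h in SIRTintKO, where *Clec9a* was also lower and *Itgax* higher. None of the B cell or dendritic cell markers analysed was at 0 in all livers, and their part in the members' fall was not tested.

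Kupffer cell markers, all 8 tested, had a summed median of 163, 132 and 103 CPM at 0, 6 and 24 h in WT and 163, 113 and 159 CPM in SIRTintKO, with ranges of 72.4 to 192, 69.7 to 229 and 32.9 to 121 CPM and of 121 to 256, 79.4 to 128 and 91.1 to 317 CPM. Called lower were 3 at 6 h in SIRTintKO (*Clec4f*, *Folr2* and *Timd4*) and at 24 h 5 in WT and 2 in SIRTintKO. *Marco* was called higher in SIRTintKO at both times. The 12 macrophage and monocyte markers had medians of 188, 172 and 113 CPM in WT and 185, 124 and 179 CPM in SIRTintKO, with whole ranges of 96.1 to 266 and 84.3 to 362 CPM. Of these, *Adgre1*, *Csf1r* and *Lyz2* were called lower at 6 h in SIRTintKO and *Adgre1* and *Csf1r* at 24 h in WT. *Itgam* was called higher at 6 h in both genotypes. At 24 h, 6 of these markers were called higher in SIRTintKO and 3 in WT. Sinusoidal endothelial markers, 8 tested, gave 3 called lower at 6 h in SIRTintKO and 5 at 24 h in each genotype. *Lyve1* of the same list was called higher at 6 h in WT and at 24 h in SIRTintKO. Of all genes tested, 8.67% were called lower at 6 h in SIRTintKO, and 7.37% in WT and 11% in SIRTintKO at 24 h. Called higher were 7.14% in WT and 7.8% in SIRTintKO at 6 h, and 8.3% and 11.9% at 24 h. The sums join genes that moved in opposite directions: at 24 h in SIRTintKO the median log2 fold change against 0 h was -0.52 over the Kupffer cell markers and 1.06 over the macrophage and monocyte markers. In the same genotype the summed level of the 8 class II genes had a median of 130 CPM (range 82.0 to 259) at 0 h and 53.2 CPM (39.2 to 92.5) at 24 h. The part of these cells in the members' levels was not tested.

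**Figure D5:**
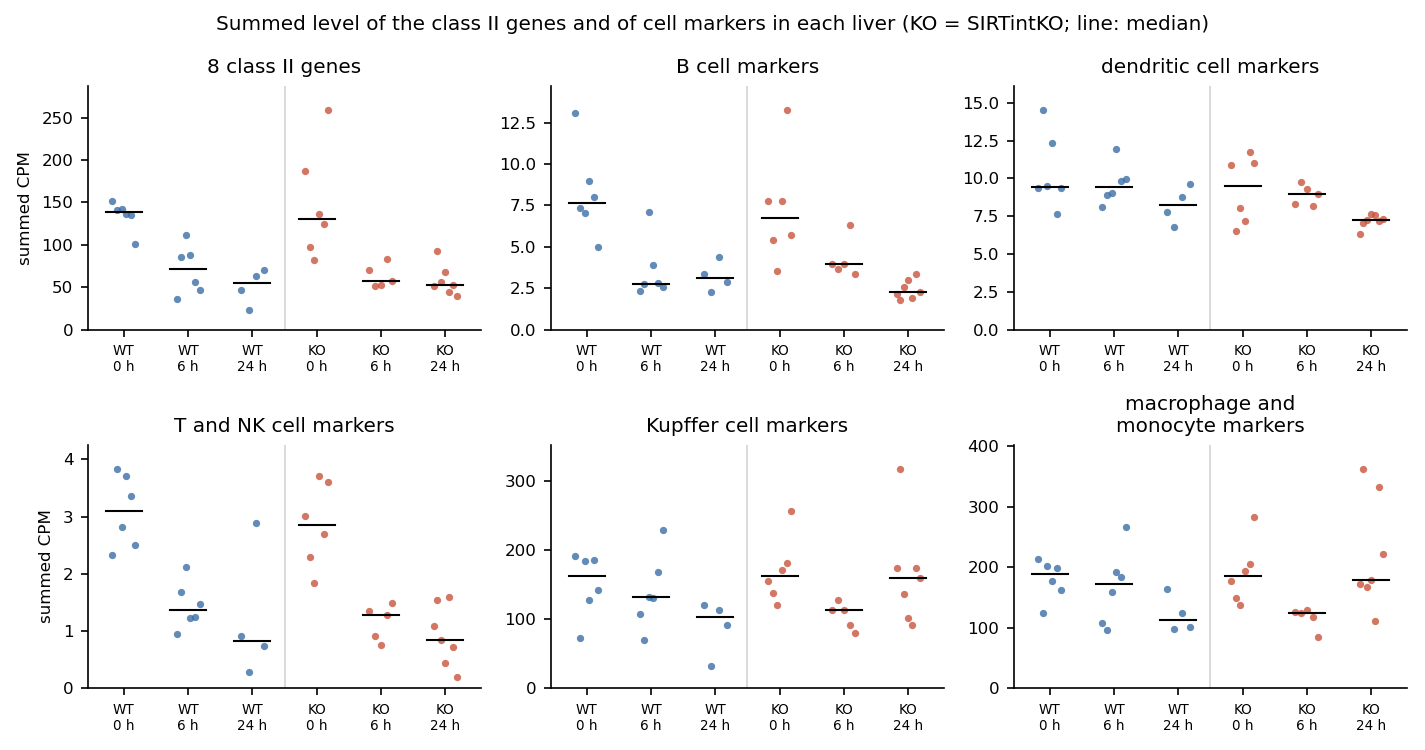
The panels plot, for each liver in the 6 groups, the summed CPM of the 8 class II genes and of the marker lists of B cells, dendritic cells, T and NK cells, Kupffer cells and macrophages and monocytes, with a line at the group median. The class II sum has a median of 139 CPM in WT at 0 h and 55.5 CPM at 24 h, the dendritic cell sum 9.43 and 8.28 CPM, and the Kupffer cell sum in SIRTintKO 163 CPM at 0 h and 159 CPM at 24 h.

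T and NK cell markers were at the limit of detection, with 2 of 10 tested. Their summed level had medians of 3.09, 1.36 and 0.834 CPM in WT (ranges 2.33 to 3.83, 0.948 to 2.12 and 0.286 to 2.88) and 2.85, 1.27 and 0.851 CPM in SIRTintKO (1.84 to 3.71, 0.755 to 1.497 and 0.196 to 1.60). *Trac* was called lower at 24 h in both genotypes and *Cd3g* in SIRTintKO. From liver to liver within the groups, *H2-Aa* went with the T and NK cell sum (r 0.62, rho 0.59, permutation adjusted p = 0.00288, r 0.51 without the 2 farthest livers) and with the dendritic cell sum (r 0.40, rho 0.40, permutation adjusted p = 0.0341, r 0.42). For the sums of B cells (r 0.36, rho 0.44, permutation adjusted p = 0.0731, r 0.47), Kupffer cells (r 0.37, rho 0.25, permutation adjusted p = 0.0741, r 0.0872) and macrophages and monocytes (r 0.31, rho 0.18, permutation adjusted p = 0.138, r 0.138), r did not pass. For B cells the rank correlation did pass (permutation adjusted p = 0.0312).

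Of 8 markers of neutrophils, which do not normally carry class II, 7 were tested, and all 7 were called higher at 24 h in SIRTintKO (11.9% of all genes) and 4 in WT (8.3% of all genes). Their summed level in SIRTintKO at 24 h ran from 24.1 to 960 CPM with a median of 105 CPM, against 4.73 to 22.4 CPM with a median of 10.1 CPM at 0 h. In WT it ran from 7.86 to 115 CPM at 24 h (median 55.9 CPM), overlapping the range of 7.39 to 24.0 CPM at 0 h (median 17.2 CPM).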

How the data were processed

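Polyadenylated RNA of whole mouse liver was sequenced from 34 mice, and the groups of genotype and time were taken from the sample labels. The labels, which were followed, give 1 more WT liver at 6 h and 1 fewer at 24 h than the study's text. Libraries were stranded. The authors ran nf-core/rnaseq, in which STAR placed the reads and Salmon quantified each gene, and their processing notes name the GRCm39 build, while versions are not given in the sources used here. The deposited values are these estimated counts (expected counts per gene, made by the authors with Salmon), of which 4.97% were not whole, and they were rounded. Of 35 columns of counts, 1 matched no sample and was left out. Symbols in the table lack the letter x, and 1255 were restored by gene ID. No 2 libraries of a group agreed within sampling noise (lowest chi-square per gene 14.7).

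Genes were filtered by filterByExpr, scaled by TMM and fitted over all 34 libraries with 1 mean per group by edgeR 4.0.16 in R 4.3.3 (robust quasi-likelihood, common biological coefficient of variation 0.302). This quasi-likelihood fit stands in for the authors' own DESeq2 model of genotype, time and interaction. Calls used the cuts of their methods, applied here to unshrunken fold changes where the authors shrank theirs: adjusted p under 0.05 (Benjamini-Hochberg over all 14980 genes) and a log2 fold change over 1 in size. Levels are CPM of TMM-scaled libraries, and deviations used log2 CPM with a prior count of 2. Intervals are 95% intervals of the fit. Depth sets the precision: members with few counts, as stated, have wide intervals. DESeq2 1.42.0, other scalings and filters, a replicate block, and each library left out in turn were tried, along with 3 alternatives chosen after seeing the data (no robust estimation, no livers with *H2-Ea*, *H2-DMb1* and *H2-DMb2* summed). Relations, promoters and figures used Python 3.11.15 (pandas 2.3.3, scipy 1.17.1, matplotlib 3.10.9).

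The members, the pathway lists and the markers were chosen with earlier results of these data known. Named were all 8 members, the other class II chains and loading genes, each pathway gene called in a comparison (*Ctss*, *Nfya* and *Rfxap* were added after their values were seen), and the 5 genes of at least 1 CPM most correlated with the chains, *Cd74* and DM genes.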

Additional observations from a re-analysis of the deposited data

Results flagged for a closer look

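Dixon's criterion was applied to 11 class II genes, each in every group of 4 to 7 livers where it had counts, which gave 62 sets. In 7 of these sets 1 liver lay far from the others of its group, and chance gives about 1 in 20 sets. The sets share their livers and many of the genes went together, so they are not independent. An excess over chance was not tested. SIRTintKO 24 h replicate 2 was high in *H2-Aa* (23.9 CPM, next liver 10.03 CPM) and in *Cd86* (3.89 CPM). WT 0 h replicate 6 was low in *H2-Ab1* (16.4 CPM, next liver 22.02 CPM) and *H2-Eb1* (11.2 CPM, next liver 17.1 CPM), and WT 0 h replicate 1 was high in *H2-DMb1* (2.68 CPM, next liver 1.99 CPM). SIRTintKO 6 h replicate 1 was high in *H2-DMa* (1.86 CPM, next liver 1.21 CPM). SIRTintKO 0 h replicate 5, one of the livers with *H2-Ea*, was high in *H2-DMb2* (1.77 CPM). The cause of none of these was tested.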

How the results depend on the processing

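The direction and call of most values held under the alternatives. DESeq2 in place of edgeR changed no call and turned 2 of 88 values: *H2-Aa* from 6 to 24 h in SIRTintKO (0.028) and the 24 h interaction of *H2-Ab1* (0.0073). DESeq2's size factors turned the same 2 (0.021 and 0.0027), and upper-quartile scaling turned *H2-Aa* (0.033). Testing every gene with at least 1 count lowered the members at adjusted p under 0.05 at 6 h in WT to 2 and lost *Ciita* at 6 h in SIRTintKO (-1.34, adjusted p = 0.0866). With at least 10 counts in every library, where only 4 members were left to test, 4 were called and 4 passed by adjusted p at 6 h in SIRTintKO, 0 and 0 from 6 to 24 h in SIRTintKO, and *H2-Aa* there was 0.019. By glmTreat 0, 0, 0 and 1 members were called at 6 and 24 h against 0 h (WT 6 h, SIRTintKO 6 h, WT 24 h, SIRTintKO 24 h) and 0 from 6 to 24 h in SIRTintKO. With only the groups compared in the fit *H2-Aa* from 6 to 24 h was 0.0191. Without the livers with *H2-Ea* it was 0.015, and the 24 h interaction of *Ciita* was 0.071. Leaving out robust estimation changed no call. Same-numbered livers did not pair (correlation of deviations -0.306 to 0.217 over 76 pairs, 6 over 0.1), and with the replicate number as a block no call changed and 5 of 88 values turned: *H2-Aa* (0.087) and *H2-Ab1* (0.015) from 6 to 24 h in SIRTintKO, and the 24 h interactions of *Ciita* (0.21), *Cd74* (0.042) and *H2-Ab1* (0.16). Each turned value was near 0 and had no call.

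Leaving out each of 34 livers in turn, the members called were 0 to 3 at 6 h in WT, 4 to 8 at 6 h in SIRTintKO, 4 to 7 at 24 h in WT, 3 to 4 at 24 h in SIRTintKO, 0 to 2 from 6 to 24 h in SIRTintKO and 0 to 1 between genotypes at 24 h. By adjusted p alone they were 2 to 6, 7 to 8, 4 to 7, 4 to 6, 1 to 2 and 0 to 1. Values that turned ranged as follows. From 6 to 24 h in WT, *Ciita* ran from -0.46 to 0.67, *Cd86* from -0.55 to 0.034 and *H2-DMa* from -0.29 to 0.050, and in SIRTintKO *H2-Aa* from -0.31 to 0.11 and *H2-Ab1* from -0.16 to 0.11. For SIRTintKO against WT at 0 h, *Cd74* ran from -0.13 to 0.24, *H2-Aa* from -0.10 to 0.24, *H2-Eb1* from -0.13 to 0.22 and *H2-Ab1* from -0.089 to 0.28. At 6 h *Cd74* ran from -0.27 to 0.042 and *H2-Aa* from -0.26 to 0.067. At 24 h *Ciita* ran from -0.035 to 1.09, *Cd74* from -0.22 to 0.18, *H2-Eb1* from -0.14 to 0.35 and *H2-Ab1* from -0.10 to 0.37. For the interaction at 6 h *Cd74* ran from -0.39 to 0.0066. At 24 h *Ciita* ran from -0.39 to 0.74, *Cd74* from -0.34 to 0.14, *H2-Aa* from -0.11 to 0.46, *H2-Eb1* from -0.23 to 0.27 and *H2-Ab1* from -0.25 to 0.23. The cause of these was not tested. *Ciita*, at 1 to 16 counts a liver, is the member most limited by depth.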
